A study of Caenorhabditis elegans with 2 samples.

Results

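Binding of the nuclear hormone receptor NHR-237 of Caenorhabditis elegans was mapped by ChIP-seq, and the regions described here are those whose summit, the position of highest signal in a region, lay in an autosomal coding exon away from promoters. A region was taken from the list called on both replicates together if its summit lay in coding sequence of a protein-coding gene and within 2000 bp of the start of a protein-coding transcript. The summit also had to lie outside every promoter window, which runs 1000 bp upstream to 200 bp downstream of such a start. The rule used position only. It was met by 268 of the 6107 autosomal regions (4.39%, 95% exact interval 3.89 to 4.93%). The list holds a further 1592 regions on the X chromosome, to which the rule does not apply. The deposit labels this list as peaks and background, so a region in it need not be a binding site. The 268 regions lay in coding exons of 264 genes.

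Chromatin came from whole L1 larvae of strain OP228, with both sexes pooled and the age in hours unknown. This strain carries the integrated transgene wgIs228, which supplies NHR-237 fused to eGFP, in an unc-119(ed3) III background, and the labels name NHR-237 in the antibody field, so it was not settled here whether the antibody recognised the tag. There was 1 group, with 2 biological replicates per the labels, so all comparisons are between classes of region within the lists. No untagged strain or input was analysed here, and the number of reads is unknown. The promoter that drives the fusion and the tissues that contain it are not stated in the labels, and binding in single cell types cannot be read from whole larvae.

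Nuclear hormone receptors are transcription factors that bind short DNA motifs through zinc fingers, and many respond to small lipid-like ligands. The nematode family is much larger than the mammalian one, and most of its members, NHR-237 among them, have little described function. In ChIP-seq, DNA cross-linked to the factor is recovered and sequenced, and a peak caller marks regions where reads pile up. Regions of transcription factors usually lie in promoters and enhancers, while coding exons carry the protein sequence.

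The bases under the summits of the 8 regions of highest signal after the one in eat-16 are shown because these exons, with eat-16, carried the highest values described below. Each holds the summit and the 50 bases on either side of it in the ce11 build (WBcel235, RefSeq), 5′ to 3′ on the strand of the coding gene. The nrfl-1 window is chrIV:9121620-9121720 on the plus strand, ZK112.4 is chrIII:7729753-7729853 on the minus strand, and tir-1 is chrIII:3870745-3870845 on the minus strand. The dmsr-13 window is chrV:6818801-6818901 on the minus strand, cct-5 is chrIII:4500200-4500300 on the minus strand, and unc-64 is chrIII:13283817-13283917 on the plus strand. H12D21.11 is chrV:14916213-14916313 on the plus strand and lmd-3 is chrV:8422090-8422190 on the minus strand. Capitals mark a match to any of 7 searched motifs on either strand. The hexamer that many nuclear receptors read was searched as AGGTCA. The site of GATA factors was searched as TGATAA, and a run of alternating purines as GAGAGA. The E-box was searched as CACGTG, the site of bZIP factors of the AP-1 type as TGANTCA, the heat shock element as TTCNNGAA, and the end of a nematode intron, its 3′ splice site, as TTTCAG.
nrfl-1: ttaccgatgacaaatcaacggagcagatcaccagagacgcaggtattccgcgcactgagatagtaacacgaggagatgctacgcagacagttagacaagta
ZK112.4: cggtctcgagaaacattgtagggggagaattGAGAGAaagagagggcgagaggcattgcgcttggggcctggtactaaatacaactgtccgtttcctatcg
tir-1: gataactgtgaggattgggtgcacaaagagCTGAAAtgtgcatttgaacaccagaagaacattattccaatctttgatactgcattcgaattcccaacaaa
dmsr-13: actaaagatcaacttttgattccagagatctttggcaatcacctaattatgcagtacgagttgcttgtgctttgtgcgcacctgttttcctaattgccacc
cct-5: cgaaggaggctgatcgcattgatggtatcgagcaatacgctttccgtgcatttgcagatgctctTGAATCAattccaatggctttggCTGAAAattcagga
unc-64: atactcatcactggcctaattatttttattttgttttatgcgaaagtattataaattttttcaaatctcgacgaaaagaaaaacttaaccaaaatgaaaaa
H12D21.11: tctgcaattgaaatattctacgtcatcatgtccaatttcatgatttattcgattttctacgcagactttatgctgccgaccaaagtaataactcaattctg
lmd-3: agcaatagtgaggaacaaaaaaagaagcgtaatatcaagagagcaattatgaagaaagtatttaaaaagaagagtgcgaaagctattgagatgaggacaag
The window of highest signal, in eat-16, is not printed and held AGGTCA. Of the 8 printed, none held AGGTCA and the ZK112.4 window alone held GAGAGA. Their base composition ranged widely, with 51.5% G or C in ZK112.4 and 23.8% in unc-64.

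Coding exons held few regions for their length. Sequence that met the rule made up 10.96 Mb, or 13.3% of the autosomes, and held 24.5 regions per Mb (95% exact Poisson interval 21.6 to 27.6). Promoter windows held 121 per Mb (117 to 126), 4.97 times as many. Introns outside promoters and within the same 2000 bp held 58.7 per Mb (54.6 to 63.0), intergenic sequence 80.6 (76.6 to 84.7), and coding exons beyond 2000 bp 20.5 (16.7 to 24.8). The interval for coding exons within 2000 bp did not overlap those of promoters, introns or intergenic sequence, and overlapped that of coding exons farther out. These intervals cover counting error only, and regions of 1 list are not independent replicates.

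**Figure D1:**
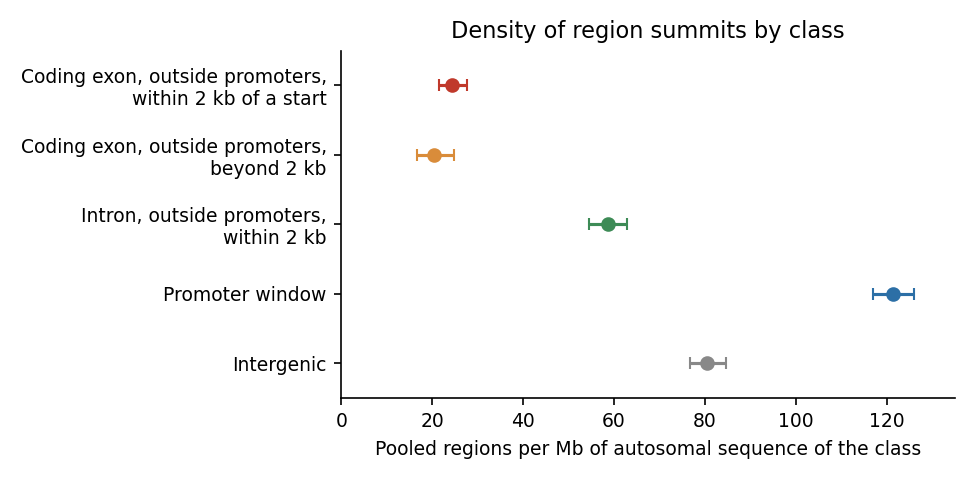
Regions of the pooled list per Mb of autosomal sequence (horizontal axis) for 5 classes of sequence, with 95% exact Poisson intervals. Coding exons within 2000 bp of a start had 24.5 per Mb, near the 20.5 of coding exons farther out and below the 58.7 of introns and the 121 of promoter windows.

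The density was similar along the chromosomes and along the genes. Chromosome I had 43 of the coding-exon regions, II had 55, III had 45, IV had 55 and V had 70. Per Mb of sequence that met the rule these were 23.3, 24.6, 27.1, 27.1 and 22.0, and all 5 intervals overlapped. The central part of each chromosome, 1 of 3 equal lengths, held 46.6% of the regions (40.5 to 52.8%), against 42.5% of the sequence that met the rule. In bins of 200 bp of distance from the nearest start, the density lay between 19.8 per Mb at 1400 to 1600 bp and 27.4 per Mb at 1000 to 1200 bp, with no steady trend. In the bin next to the promoter window, 200 to 400 bp from a start, it was 26.2 per Mb (18.6 to 36.0). The median distance was 1031.5 bp (quartiles 583.5 and 1352.75).

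**Figure D2:**
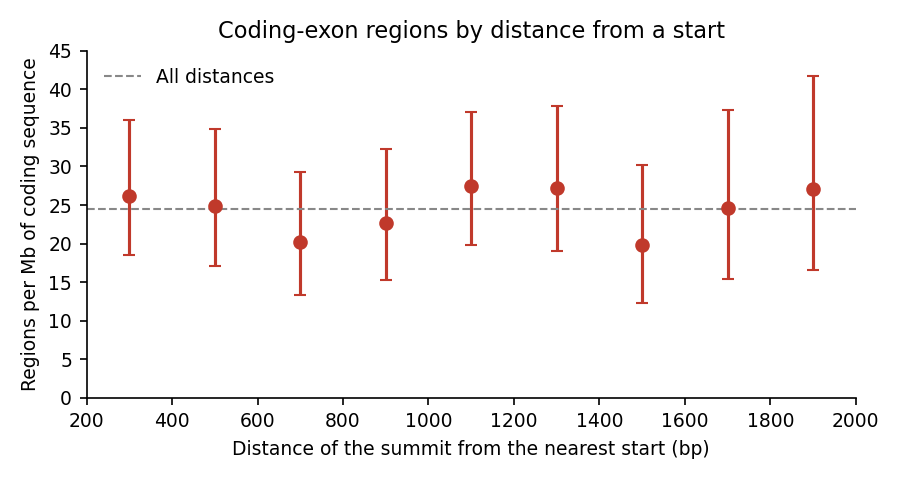
Coding-exon regions per Mb of coding sequence that met the rule (vertical axis), in 200 bp bins of distance from the nearest start of a protein-coding transcript (horizontal axis), with 95% exact Poisson intervals and the value over all distances as a dashed line. All bins lay between 19.8 and 27.4 per Mb and every interval included 24.5.

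Coding-exon regions lay close to the distance limit on both sides of it, with differing signals. Just inside it were acox-3 (an acyl-CoA oxidase) at 1959 bp with a signal of 27.2, bli-4 (a proprotein-processing endoprotease) at 1954 bp with 23.8, and R09E10.5 at 1930 bp with 25.9. Just outside it were puf-12 (a protein with Pumilio repeats) at 2005 bp with 26.7, Y71G12B.31 at 2019 bp with 37.1, and pgp-1 (an ABC transporter of the P-glycoprotein group) at 2029 bp with 29.6.

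Signal, the authors' peak calling score, has no stated scale and was used only to order regions within a list, with rank 1 the highest. The coding-exon regions stood low in the pooled list. Their signals lay between 23.5 and 59.5, with a median of 26.2, while promoter regions reached 419 with a median of 32.5. The median rank was 5302 among the coding-exon regions (quartiles 3759.5 and 6665.25), against 2792 for promoter regions, 4514 for intron regions and 5166 for coding-exon regions beyond 2000 bp. Only 70 of the 268 (26.1%, 20.96 to 31.8%) ranked above the middle of the list, as did 62.0% of promoter regions and 40.7% of intron regions.

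Among the 770 regions of highest signal in the pooled list, 638 were autosomal and none was a coding-exon region, with an exact 95% upper bound of 0.577%. Among the next 770 there were 6 (0.929% of the autosomal ones). The share then rose down the list to 53 of 611 (8.67%, 6.57 to 11.2%) among the 770 of lowest signal. Promoter regions went the other way, with 74.0% of the autosomal regions in the highest group and 31.3% in the lowest.

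**Figure D3:**
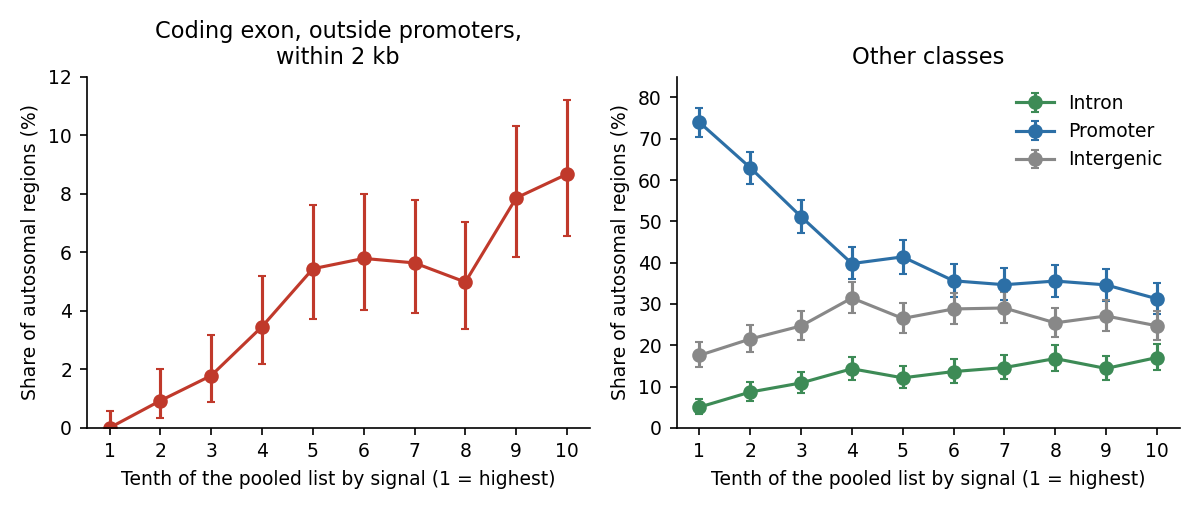
Share of autosomal regions in each class (vertical axes, percent) by position in the pooled list ordered by signal, from the 770 highest to the 770 lowest (horizontal axes), with 95% exact binomial intervals; coding-exon regions at left, intron, promoter and intergenic regions at right. Coding-exon regions had a share of 0 at the top and 8.67% at the bottom, while promoter regions had 74.0% at the top and 31.3% at the bottom.

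Few of them met the authors' own measures of strength. The list that passed the irreproducible discovery rate (IDR) threshold, which keeps regions ranked alike in both replicates, overlapped 13.3% of all pooled regions by at least 1 bp. It overlapped 2 of the 268 coding-exon regions (0.746%, 0.0905 to 2.67%), against 605 of 2713 promoter regions (22.3%) and 54 of 774 intron regions (6.98%). The deposited q-value was under 0.05 for 18.4% of all pooled regions. It was under 0.05 for 4 of the coding-exon regions (1.49%), in eat-16, nrfl-1, ZK112.4 and tir-1, against 818 promoter regions (30.2%). The median q of the coding-exon regions was 0.847. Both measures were made by the authors from the same lists, so they are not separate evidence beside the ranks.

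The 2 regions in the IDR list differed in kind. The eat-16 region (chrI:9725227-9725590) had a pooled signal of 59.5 (rank 774), with 33.0 in replicate 1 (rank 777 of 21745) and 25.1 in replicate 2 (rank 1097 of 25720). The gene encodes a regulator of G protein signalling that dampens Gq signalling in neurons. Its summit lay 5 bp from the edge of the last coding exon, 13 bp of coding sequence at the end of the reading frame, and only 3.57% of the region was coding. The nearest start was that of the homeobox gene ceh-5, 1760 bp away and downstream of the summit. The eat-16 promoter window also held 2 pooled regions, the higher at rank 320 and in the IDR list.

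The nrfl-1 region (chrIV:9121488-9121851) had a pooled signal of 53.99 (rank 923), with 24.0 in replicate 1 (rank 1499) and 30.9 in replicate 2 (rank 663). The gene encodes a PDZ scaffold protein of the sodium-hydrogen exchange regulatory cofactor family. Here the whole region was coding, 298 bp from the gene's own start, within a coding exon of 780 bp. No pooled region lay in an nrfl-1 promoter window, and the nearest other IDR region was 47219 bp away. Both replicates ranked these 2 exon regions high in their own lists, with the higher rank in replicate 1 for eat-16 and in replicate 2 for nrfl-1. Because they were chosen from the IDR list, which keeps regions ranked alike in both replicates, this is not separate support.

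The next regions by signal were of mixed function. ZK112.4, a short gene with a single coding exon, had a signal of 46.8 (rank 1231), with 23.9 in replicate 1 (rank 1503) and 21.6 in replicate 2 (rank 1645). The region in dmsr-13, a G protein-coupled receptor of the myosuppressin-receptor-related family, had 42.5 (rank 1479), with 19.2 and 19.4 (ranks 2646 and 2358). That in cct-5, the epsilon subunit of the cytosolic chaperonin that folds actin and tubulin, had 42.1 (rank 1499), with 22.1 and 17.8 (ranks 1780 and 3248). Of these 3, ZK112.4 and dmsr-13 stood at similar places in both replicate lists, and cct-5 stood farther down in replicate 2.

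Other regions among the 20 highest ranked very differently in the replicate lists. The region in tir-1, which encodes the nematode SARM homolog with a TIR domain, had a pooled signal of 44.2 (rank 1356) but 29.3 in replicate 1 (rank 1002) and 9.88 in replicate 2 (rank 20236). The region in nhr-42, itself a nuclear hormone receptor gene, had 38.2 (rank 1846) with 29.4 in replicate 1 (rank 998) and 9.08 in replicate 2 (rank 24139). The region in nstp-8, of the nucleotide sugar transporter family, had 33.9 with 22.9 in replicate 1 (rank 1636) and 10.4 in replicate 2 (rank 17864). In T25F10.4 the pooled signal was 35.2, with no region listed in replicate 1 and 20.96 in replicate 2 (rank 1853). In these 4 exons a rank between 998 and 1853 in 1 list stood beside a rank of 17864 or lower in the list, or no region, in the other.

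The rest of the 20 highest had pooled signals between 34.6 and 40.1. The region in unc-64, the syntaxin of synaptic vesicle fusion, had 40.1 and lay 1854 bp from the start of F56A8.8, at the very end of the unc-64 reading frame. H12D21.11 had 40.03, lmd-3 (a LysM-domain gene) 38.9, dyf-4 (needed for dye uptake by sensory neurons) 38.9, nlp-27 (a neuropeptide-like protein) 38.6 and pxf-1 (a guanine nucleotide exchange factor for Rap) 37.9. F22B7.9 had 37.4, the chemoreceptor gene srz-31 35.7, F13G3.3 35.5, the CREB-H-type bZIP gene let-607 34.7 and Y105C5A.8 34.6. Replicate ranks differed among these regions too, in both directions. In replicates 1 and 2, nlp-27 ranked 2071 and 7912, pxf-1 3179 and 9122, dyf-4 3534 and 1321, and F13G3.3 5111 and 1976. Of the 20 regions, 19 had an overlapping region in both replicate lists, and 13 ranked higher in the replicate 1 list than in the replicate 2 list. They lay on 4 chromosomes, with none on II.

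**Figure D4:**
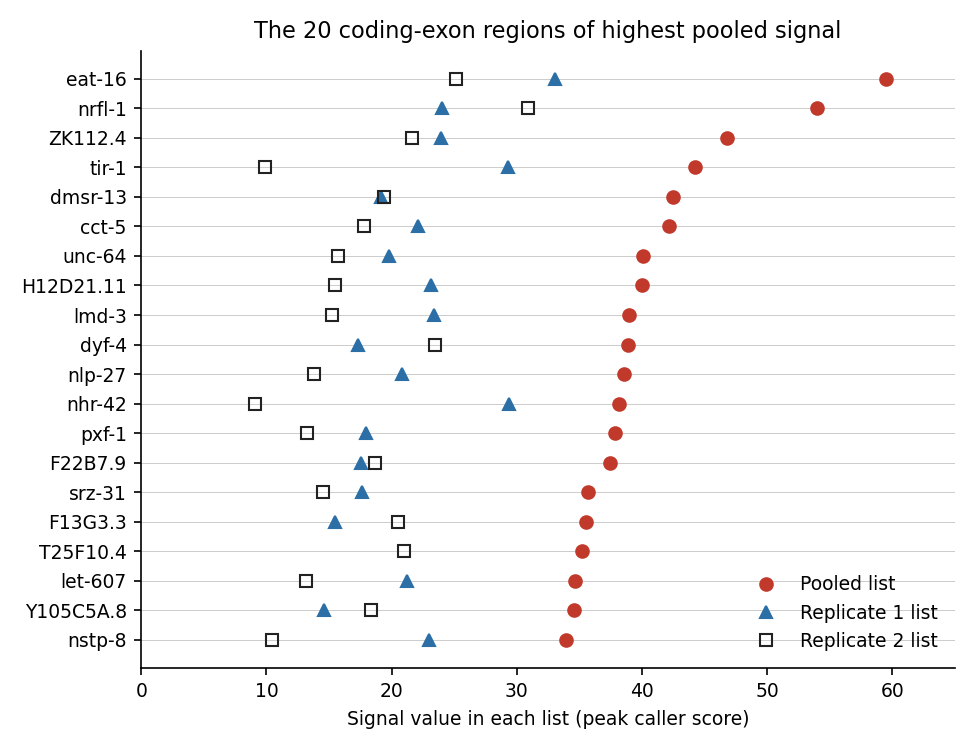
Signal value (horizontal axis, peak caller score) of the 20 coding-exon regions of highest pooled signal, named by gene, in the pooled list (circles), the replicate 1 list (triangles) and the replicate 2 list (open squares), each to be read within its own list. The pooled values lie between 33.9 and 59.5, and T25F10.4 has no replicate 1 value.

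Over all autosomal regions, 74% overlapped a region of both full replicate lists by at least 1 bp. Of the coding-exon regions, 183 did (68.3%, 62.3 to 73.8%), against 79.3% of promoter regions and 68.3% of intron regions. A further 47 overlapped only the replicate 1 list, 36 only the replicate 2 list, and 2 (gon-4 and srj-7, named after their values were seen) neither. With the pooled list split at rank 3850 the shares were closer, though ranks were not matched within either part. Above the split the median signal was 31.5 for coding-exon regions and 42.7 for promoter regions. From rank 3850 downward the share was 60.6% of 198 coding-exon regions (53.4 to 67.5%) and 58.3% of 1030 promoter regions (55.3 to 61.4%). Above rank 3850 it was 90.0% of 70 (80.5 to 95.9%) and 92.2% of 1683. Overlap says nothing of the order within the lists. Across the regions above rank 3850 that overlapped both lists, Spearman's rho between the replicate signals was -0.27 over 63 coding-exon regions, 0.52 over 1551 promoter regions and 0.22 over 277 intron regions. These are descriptions across regions chosen on the pooled signal, which spans a narrower range in coding exons, so the values cannot be set against each other as a measure of how alike the replicates were. Of the 183, 91 ranked higher in the replicate 1 list and 92 higher in the replicate 2 list.

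The full replicate lists hold 21745 and 25720 regions, many of low signal, so overlap with them is easy. When each was cut to the length of the pooled list by signal, 31 of the coding-exon regions (11.6%, 7.996 to 16.0%) still overlapped both, while 67 overlapped neither. The share in both was 47.0% for promoter regions, 24.5% for intron regions, 7.69% for coding-exon regions beyond 2000 bp and 35.2% for all autosomal regions. The cut removes regions of low signal and most coding-exon regions ranked low, so these shares do not separate class from rank. The rule itself, applied to these cut lists, found 394 coding-exon regions in replicate 1 (6.53% of its autosomal regions, 5.92 to 7.19%) and 251 in replicate 2 (4.07%, 3.59 to 4.60%). Promoter shares were 43.5% and 43.4% in the same lists. The coding-exon share thus differed between replicates by more than counting error. The share of coding exons beyond 2000 bp did so too, at 2.62% (2.23 to 3.05%) in replicate 1 and 1.25% (0.987 to 1.56%) in replicate 2. The intervals of the promoter share overlapped (42.3 to 44.8% and 42.2 to 44.6%).

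Most coding-exon regions lay inside the gene whose start was nearest. For 226 of the 268 (84.3%, 79.4 to 88.5%) the nearest start belonged to the coding gene itself. For 28 (10.4%) the summit was upstream of another gene's start, and for 14 (5.22%) downstream of one. By position in the reading frame, 208 summits (77.6%) were in internal coding exons, 45 (16.8%) in the last and 15 (5.60%) in the first, of which 1 was the only coding exon. The summit sat a median of 49.2% along the coding sequence. The rule itself shapes these shares, because it leaves out 1000 bp upstream of every start but only 200 bp downstream. They were not computed over all bases that met the rule, so they are not read as a property of the regions. Coding genes were on the plus strand for 130 and on the minus strand for 138.

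The regions, all 364 bp wide, mostly ran past the exon. A median of 69.8% of a region was coding (quartiles 53.0 and 81.0%), and 32 regions (11.9%) were wholly so. The exon under the summit had a median length of 222.5 bp, against 272 bp over all bases that met the rule. The summit was a median of 46.5 bp from the nearest exon edge, against 59 bp over all such bases. It was at least 50 bp inside the exon for 128 (47.8%, 41.6 to 53.9%), against 56.6% of those bases. Summits were thus somewhat nearer to exon edges and in shorter exons than the coding sequence at large. Neighbouring features were also counted. Another pooled summit lay within 1000 bp of 26 regions (9.70%), against 14.4% of promoter regions and 16.4% of intron regions. Over all pooled regions the share was 15.5%. A noncoding RNA gene lay within 250 bp of the summit for 3 regions (1.12%), against 3.60% of all pooled regions. Named after their values were seen, these 3 were F22B7.9 and F33G12.3, each beside a tRNA gene, and B0361.11, beside mir-2214.

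Base composition at the summits was close to that of coding sequence. The median was 38.6% G or C within 50 bases of the summit (quartiles 33.7 and 43.6%), and 36.1% in windows centred 300 bp to each side. At every position that met the rule the median was 40.6%. Promoter summits also had a median of 38.6%, but there every position of the class gave 34.7%, so that promoter summits lay above their class and coding-exon summits slightly below theirs. Intron summits had 31.7%, against 32.7% at every intron position.

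The purine run GAGAGA, found at many promoter summits, was not more frequent at coding-exon summits than elsewhere in coding sequence. It was in 14 of the 268 windows (5.22%, 2.89 to 8.61%), with 6.34% of the windows 300 bp away and 5.22% of all coding windows that met the rule. At promoter summits it was in 464 windows (17.1%, 15.7 to 18.6%), with 6.40% of the windows 300 bp away and 5.94% of all promoter windows. At intron summits it was in 12.02%, with 5.68% 300 bp away and 3.93% at every intron position. Among the 70 coding-exon regions above rank 3850, 2 held it (2.86%, 0.348 to 9.94%). In the same part of the list, without matching by rank, it was in 20.1% of promoter regions and 22.5% of intron regions. Among the 198 from rank 3850 downward, 12 held it (6.06%, 3.17 to 10.3%), against 12.2% of promoter regions and 4.79% of intron regions. At these lower ranks, where most coding-exon regions lay, the intron share was inside their interval. Over all pooled regions the share was 14.2%.

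The nuclear receptor hexamer AGGTCA was in 9 coding-exon windows (3.36%, 1.55 to 6.28%). In windows 300 bp away it was in 2.24%, at every coding position in 2.14%, at promoter summits in 2.69% and over all pooled regions in 2.66%, all within that interval. The eat-16 window, with the highest signal of the coding-exon regions, was 1 of the 9. TTTCAG was in 54 windows (20.1%, 15.5 to 25.5%), close to the 18.97% of all coding positions. Over all pooled regions the share was 13.5%, below that interval, and at promoter summits it was 11.5%, against 20.3% at every promoter position. Of the other motifs, TGATAA was in 25 windows (9.33%, against 8.51% of all pooled regions), TTCNNGAA in 20 (7.46% against 5.61%), TGANTCA in 12 (4.48% against 3.30%) and CACGTG in 8 (2.99% against 2.39%). Each of these 4 shares over all pooled regions lay inside the interval of the coding-exon windows. A match here is a run of letters and was not tested as a binding site.

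**Figure D5:**
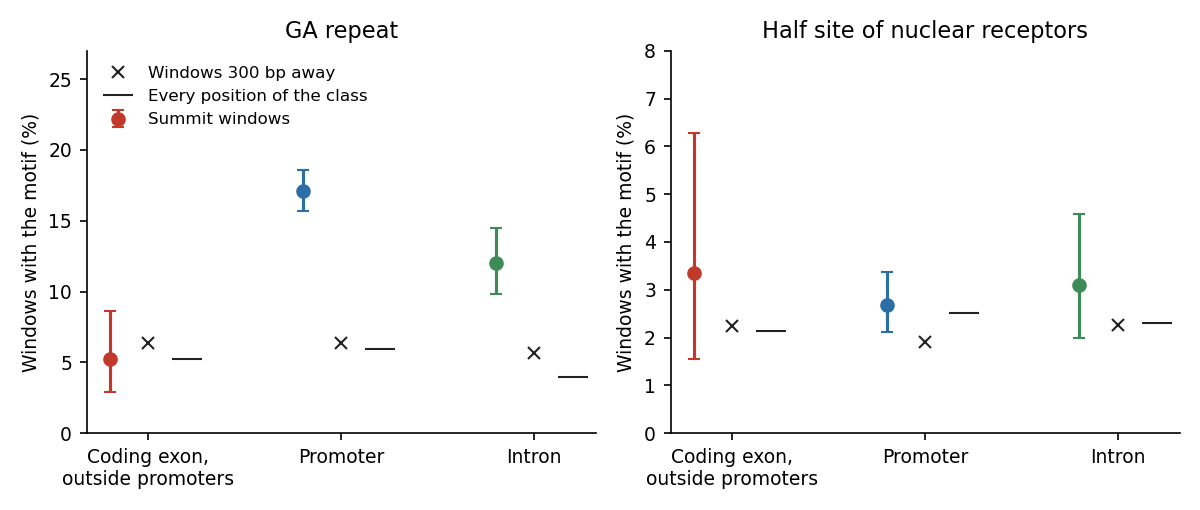
Share of windows (50 bases on either side) that hold GAGAGA (left) or AGGTCA (right) at summits (circles with 95% exact binomial intervals), 300 bp away (crosses) and at every position of the class (dashes), for coding-exon, promoter and intron regions. GAGAGA was at 5.22% of coding-exon summits and 5.22% of coding positions, against 17.1% of promoter summits and 5.94% of promoter positions.

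Of 15527 autosomal genes with any coding sequence that met the rule, 1.7% held a coding-exon region. Of the 264 such genes, 66 (25%, 19.9 to 30.7%) also had a pooled region in a promoter window of their own, against 17.8% of the 15527. An IDR region lay in the promoter window of 12 of the 264 (4.55%, 2.37 to 7.81%), against 4.53%. The genes were longer, with a median of 2908 bp against 2125 bp, and no account of length was taken in these shares. In 2 of the 20 highest regions besides eat-16 the gene's promoter held an IDR region, at rank 809 for nhr-42 and 524 for let-607.

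Only 4 genes held 2 regions and none held more. They were tlk-1, a tousled-like protein kinase gene (signals 32.4 and 23.6), B0554.2 (30.1 and 24.7), R07E5.17 (28.7 and 27.7) and nac-3, a sodium-coupled dicarboxylate transporter gene (27.7 and 24.6). The region of higher signal in tlk-1 had no region in the replicate 1 list and 18.2 in replicate 2. No coding-exon region lay in nhr-237 or unc-119, the genes of the fusion and of the mutated background.

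The 22 gene lists were drawn up by patterns of gene names, so each leaves out genes of its kind that are named otherwise. Genes on the X chromosome, and genes without coding sequence that met the rule, cannot hold a coding-exon region. The list sizes are not the sizes of whole families. Over all 15527 genes, 4.53% had an IDR region in a promoter window. At 1.7% of genes, a list of under 50 genes would hold about 0 or 1 by its size, and such counts are given without reading a difference from them. Of 40 ribosomal protein genes, 29 had an IDR region in a promoter window and 1 had a coding-exon region (2.50%), in rpl-14 of the large subunit, with a signal of 27.6 (12.6 and 15.6 in replicates 1 and 2). Of 32 translation factor genes, 10 had an IDR region in a promoter window and 1 a coding-exon region (3.12%), in eef-1B.2 with 26.95. Of 47 chaperone genes, 16 had an IDR promoter region and 1 a coding-exon region (2.13%), in cct-5. Of 22 respiratory chain genes, 7 had an IDR promoter region and 1 a coding-exon region (4.55%), in atp-1, the alpha subunit of ATP synthase, with 26.3. None of 31 aminoacyl-tRNA synthetase, 26 proteasome, 28 splicing and 13 V-ATPase genes held a coding-exon region, though 4, 6, 8 and 4 of them had an IDR region in a promoter window.

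The next lists are of large families, so their counts of regions depend on list size and are read only beside the 1.7% of all genes. Of 1243 chemoreceptor genes, which encode sensory G protein-coupled receptors, 20 held a coding-exon region (1.61%, 0.986 to 2.47%), close to the 1.7% of all genes, and 3 had an IDR promoter region. The highest were srz-31, srz-4 with 33.9 and sre-28 with 31.5. Of 231 C-type lectin genes 5 held one (2.16%), with clec-70 at 26.6, clec-160 at 26.5 and clec-178 at 26.4. Of 300 F-box genes 2 did, fbxa-9 (26.8) and fbxa-63 (24.9). Of 130 cytochrome P450 and UDP-glucuronosyltransferase genes 3 did, cyp-33B1 (24.9), ugt-58 (24.6) and cyp-37B1 (23.7). An IDR promoter region was found for 4 F-box genes and for no gene of the lectin list or the cytochrome list.

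Among regulators, 3 of 244 nuclear hormone receptor genes held a coding-exon region (1.23%, 0.254 to 3.55%). They were nhr-42, nhr-268 with 28.3 (no region in replicate 1 and 17.9 in replicate 2) and nhr-258 with 25.7 (10.8 and 15.4 in replicates 1 and 2). A list of 106 other transcription factor genes, matched by the names ceh, hlh, zip, fkh, elt, ztf, sox, egl-43 and lin-39, had 1, the homeobox gene ceh-22 with 24.5. It leaves out factors named otherwise, such as let-607. Of 90 neuropeptide and insulin genes 1 did (nlp-27), and of 136 collagen genes 1 did (bli-1, 24.2). A list of 33 RNA helicase and Argonaute genes, matched by the names ddx, csr, rde, ergo, alg, hrde, wago, ppw and drh, had 2, ddx-15 (25.1) and ergo-1 (24.99), each listed in replicate 1 only. It leaves out helicases named otherwise, such as rha-1 (24.8) and skih-2 (28.5), which also held a coding-exon region and were named after their values were seen. The 32 muscle and cytoskeleton, 17 motor, 4 histone and 1 vitellogenin genes held none. The interval of every list included the share over all genes.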

How the data were processed

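The deposited data are narrowPeak lists on ce11 for each of 2 replicates, for both pooled and for the IDR list. Per the deposited readme files, alignments of the replicates and of a control were the input to the peak lists, and the IDR list was made from these. No source used here names the aligner, the caller or the IDR threshold. Signal values are a score by the authors without a stated scale. The deposited q column is −log10 of the q-value, and another deposited column gives the summit offset. The ce10 lists were not used here.

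Starts and coding sequence came from Ensembl release 115 (WBcel235), where transcripts annotated as protein-coding gave the starts, and bases from RefSeq. Shares have 95% Clopper-Pearson intervals and densities exact Poisson intervals, for counting error only. Class calls were checked at random positions of the genome against a second coding of the same rule. Overlaps, motif matches and Clopper-Pearson intervals were tested on simulated data (Python 3.11.15, pandas 2.3.3, scipy 1.17.1). The Poisson intervals were not tested in this way. Alternatives were other windows, limits, overlaps and lists.

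Members and gene lists were chosen with earlier results of these data known. Named were the 20 highest regions, those in the IDR list, genes with 2 regions, the 3 highest of each list and the 3 on each side of the limit.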

Additional observations from a re-analysis of the deposited data

How the results depend on the processing

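Of 50 recalculations under another setting, 36 moved a value by less than its interval and 14 by more. Without the distance limit the share of autosomal regions was 6.09% and the median distance 1259 bp. With promoter windows reaching 500 bp downstream they were 3.54% and 1166 bp. Within 1000 bp of a start they were 2.10% and 563.5 bp, with a median rank of 4851 and 61.7% in both replicate lists. Among the upper ranks only, the share was 2.25% and the median rank 3046.5, which that choice itself sets. Leaving out each replicate in turn gave shares of 4.07 to 6.53% and densities of 22.9 to 36.0 per Mb; the high ends came from replicate 1 alone, and the cause was not tested. Both replicates held 49.3% of the regions with summits within 100 bp and 11.6% in lists of equal length. No paired analysis was possible because there is 1 group. The IDR share could not be computed from 1 replicate.

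With 2 replicates, 1 group and unknown read depth, no interval covers the spread between larvae or sequencing depth. The deposit labels the pooled list as peaks and background, so weak regions at its end can be background. Which of the coding-exon regions are background was not tested. Signal scales cannot be compared between lists.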
